A study of Mus musculus with 12 samples.

Results

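The genes described here encode 6 ligands of the EGF receptor: amphiregulin (AREG), epiregulin (EREG), heparin-binding EGF-like growth factor (HBEGF), betacellulin (BTC), epidermal growth factor (EGF) and transforming growth factor alpha (TGFA). They were taken by gene symbol from a table of 36292 human gene symbols, and all 6 were listed there. RNA was sequenced from 12 tumors that grew from Hep3B, a human hepatocellular carcinoma line, under the right flank skin of female BALB/c nu/nu mice, about 8 weeks old at implantation, which lack T cells. The 4 groups of 3 mice, 1 tumor each, received a combination of H3B-6527 at 300 mg/kg and lenvatinib at 10 mg/kg, H3B-6527 alone at 300 mg/kg, lenvatinib alone at 10 mg/kg, or vehicle. All were dosed by gavage once a day once tumors averaged about 500 mm3 and were sampled 8 h after dose 4. H3B-6527 inhibits the FGF receptor FGFR4, and lenvatinib inhibits several receptor tyrosine kinases, among them the VEGF and FGF receptors. The tumors come from 1 cell line, so the mice are replicates of the host and of tumor growth, not of the cancer.

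The ligands are made as membrane-anchored precursors that proteases of the ADAM family cut from the cell surface. The freed growth factor binds EGFR, which pairs with itself or with ERBB2, ERBB3 or ERBB4 and signals through RAS and the kinases MEK and ERK. EGF, AREG and TGFA bind EGFR alone, whereas EREG, HBEGF and BTC also bind ERBB4. In liver, EGFR ligands are best known for driving hepatocyte division after tissue loss, and several of their genes are themselves induced by ERK signalling.

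AREG and EREG transcripts fell in tumors given H3B-6527, alone or with lenvatinib, and BTC transcripts rose. With H3B-6527 alone, mean AREG stood at 9.53% of the vehicle mean and mean EREG at 18.0%, while mean BTC stood at 239% of it. HBEGF did not pass the test in any comparison. EGF was detected by a few counts in lenvatinib and vehicle tumors and by none in the other 6 tumors, and TGFA was listed at 0 throughout. Levels are given as CPM, a gene's counts per 1000000 counts of the library total scaled by edgeR's TMM factor, and are compared here only within a gene. In RNA from whole tumors, fewer cells that express a gene and less RNA per cell cannot be told apart.

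Library totals lay between 23819300 and 40944973 counts, the smallest being H3B-6527 replicate 3. Markers of hepatocellular tumor cells were present in every tumor, 8 of 8 of the list, ALB with 24034293 counts over the 12 tumors and AFP with 6682446. Their summed level was 139357 to 153733 CPM with the combination, 119697 to 162341 with H3B-6527, 81225 to 100799 with lenvatinib and 80318 to 87590 with vehicle. The members differed in this: mean ALB was 76757, 78909, 40610 and 35396 CPM, mean APOB 25032, 26188, 26202 and 25581 CPM, and mean FGF19 1.94, 1.93, 2.78 and 3.49 CPM in the same order. Some host cell markers, looked up as human symbols, were at or near 0, and others were not. Among the others, CD68, CSF3R, PDGFRB and KRT10 averaged 127, 52.0, 36.7 and 15.9 CPM over the 12 tumors. The leukocyte genes PTPRC and CSF1R averaged only 0.677 and 0.929 CPM, on 275 and 384 counts in all. The endothelial gene TEK averaged 0.169 CPM, on 71 counts. Over all 12 tumors the keratinocyte genes KRT5, KRT14 and KRT1 had 3, 4 and 1 counts, the endothelial genes CDH5 and KDR 3 and 5, the fibroblast genes DCN and LUM 11 and 18, and the neutrophil gene S100A8 none. The sums of some lists nevertheless differed between groups, with 1 gene making up most of each sum and other members moving either way. The summed level of 6 leukocyte markers was 149 to 186 CPM with the combination, 133 to 203 with H3B-6527, 99.5 to 109 with lenvatinib and 84.1 to 115 with vehicle, and CD68 held most of it. TYROBP, from the same list, averaged 3.50, 3.02, 0.488 and 0.280 CPM in that order of groups. PTPRC averaged 0.947, 0.761, 0.619 and 0.379 CPM, whereas ITGAM averaged 0.393, 0.272, 0.360 and 0.445 CPM. The 4 neutrophil markers, mostly CSF3R, summed to 74.1 to 75.4 CPM with the combination, 55.7 to 87.9 with H3B-6527, 29.3 to 38.0 with lenvatinib and 27.6 to 31.4 with vehicle. MPO averaged 0.250, 0.174, 0.0628 and 0.0430 CPM in that order. S100A9 went the other way, at 0.0420, 0.0758, 0.175 and 0.194 CPM. The 6 fibroblast and mural markers, mostly PDGFRB, summed to 31.6 to 36.3, 26.9 to 36.3, 48.5 to 54.0 and 50.2 to 55.9 CPM in the same order. Of these, COL1A2 averaged 2.07, 2.04, 4.68 and 5.72 CPM, COL3A1 0.213, 0.191, 1.10 and 1.82 CPM and LUM 0.0230, 0.0225, 0.0455 and 0.0775 CPM. COL1A1 averaged 0.741, 0.761, 0.715 and 0.988 CPM and was lowest with lenvatinib. DCN went the other way, with 5, 6, 0 and 0 counts over the tumors of each group. The keratinocyte markers, mostly KRT10, and the endothelial markers, at 0.0257 to 0.348 CPM in sum, overlapped between all groups. The part of tumor cell content and of host cells in the ligand values was not tested.

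**Figure D1:**
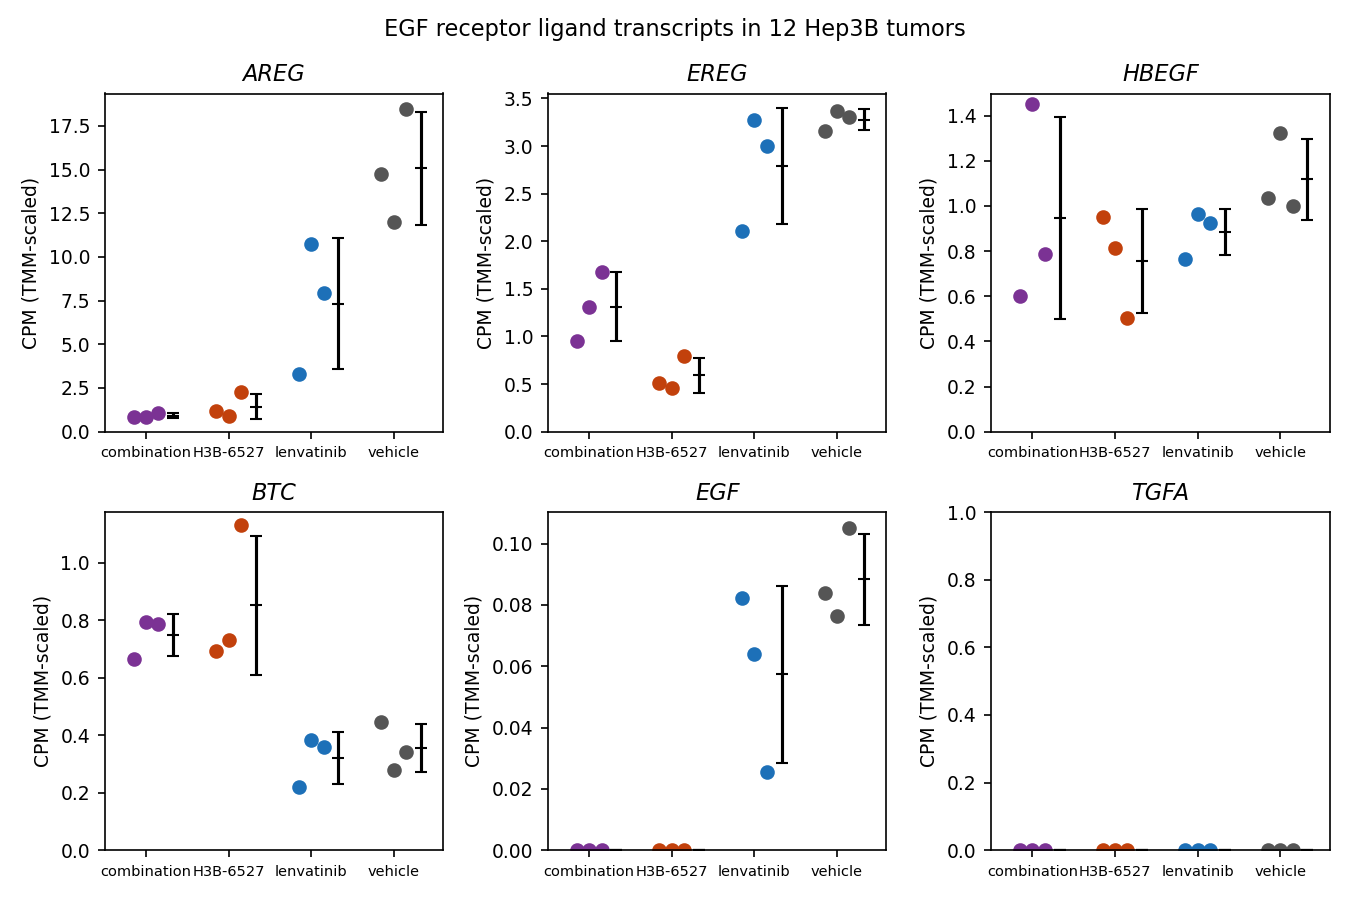
Levels of the 6 ligand transcripts (CPM, TMM-scaled, each panel with its own axis from 0) in the 12 tumors by group. Coloured points are single tumors, and the black tick and bar to their right are mean and SD of 3. AREG and EREG are low, BTC is high and EGF is at 0 in the 6 tumors that received H3B-6527. HBEGF overlaps between those 6 tumors and the other 6, and TGFA is at 0 in all 12.

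Of the 6 ligands, 4 had enough counts to be tested, and the tests covered 15836 genes in each of 6 comparisons with edgeR's quasi-likelihood test and Benjamini-Hochberg adjustment. Among all genes tested, 24.3% fell and 25.2% rose with H3B-6527 against vehicle, 25.3% fell and 24.8% rose with the combination against vehicle, and 20.9% fell and 19.1% rose, 40.0% in all, with the combination against lenvatinib. Of the 4 ligands, AREG and EREG fell and BTC rose in each of these 3 comparisons. For the same 3 ligands, the groups compared did not overlap, as for 64.6% of all genes with the combination and 56.0% with H3B-6527 against vehicle and 57.0% with the combination against lenvatinib. A call on a single ligand is thus one of many in these tumors. The comparisons with vehicle share the vehicle tumors, and HBEGF too lay apart from vehicle with H3B-6527.

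AREG, a ligand induced in injured liver and in many carcinomas, was measured at 0.854, 0.829 and 1.07 CPM in the 3 combination tumors, at 1.16, 0.894 and 2.26 CPM with H3B-6527, at 3.31, 10.7 and 7.95 CPM with lenvatinib and at 14.8, 12.03 and 18.5 CPM with vehicle. All 6 tumors that received H3B-6527 lay below all 6 that did not. Among all genes tested, every tumor with H3B-6527 lay below every vehicle tumor for 32.8% with the combination and 27.9% with H3B-6527 alone, and every combination tumor lay below every lenvatinib tumor for 29.7%. AREG fell by 4.02 ± 0.44 on the log2 scale with the combination (SE, n = 3 tumors per group, adjusted p = 2.40e-05), 16.3-fold lower than with vehicle, and by 3.45 ± 0.42 with H3B-6527 alone (adjusted p = 5.08e-05), 10.9-fold lower. Against lenvatinib, the combination was lower by a log2 difference of -2.98 ± 0.44 (adjusted p = 3.93e-04). Of the 15836 genes tested, 0.474% had a lower log2 fold change than AREG with H3B-6527 and 0.196% with the combination.

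With lenvatinib alone, all 3 tumors lay below all 3 vehicle tumors for AREG, by a log2 fold change of -1.05 ± 0.36 that did not pass after adjustment over all genes (edgeR, adjusted p = 0.309, 95% interval -1.83 to -0.26). Among all genes, 10.9% lay wholly below vehicle in this way. The 3 lenvatinib tumors were unlike, with 121, 334 and 310 counts. Without the lowest, replicate 1, the value was -0.70 (adjusted p = 0.715). Of all genes tested, 0.455% had a lower log2 fold change with lenvatinib than AREG. Adding lenvatinib to H3B-6527 gave AREG a log2 difference of -0.57 ± 0.49 (adjusted p = 0.750, interval -1.65 to 0.50), and the combination and H3B-6527 tumors overlapped. Without H3B-6527 replicate 3 the difference was -0.15 (adjusted p = 0.943). In the order of mean AREG levels, vehicle, lenvatinib, H3B-6527 and combination, the difference between the neighbours vehicle and lenvatinib, and that between the neighbours H3B-6527 and combination, did not pass the test. Lenvatinib and H3B-6527 tumors did not overlap for AREG. This pair was not tested, and the share of all genes without overlap in it was not computed.

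The symbols listed include AREGB beside AREG, and estimated counts can be shared between the 2 symbols. AREGB held 3.70 estimated counts in combination replicate 1 and 13.1 in H3B-6527 replicate 1, and 0 in the other 10 tumors. In those 2 tumors AREG and AREGB added up to 31.0 and 58.0 counts. The share of reads listed under each symbol is uncertain in these tumors, and with the counts of both symbols summed AREG kept its calls.

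EREG, a ligand of EGFR and ERBB4 that is scarce in most adult tissues, was measured at 0.949, 1.31 and 1.68 CPM in combination tumors, at 0.514, 0.461 and 0.796 CPM with H3B-6527, at 2.11, 3.27 and 3.00 CPM with lenvatinib and at 3.16, 3.36 and 3.31 CPM with vehicle. The combination tumors lay between the H3B-6527 tumors below and the lenvatinib and vehicle tumors above, with no overlap on either side. EREG fell by 1.31 ± 0.25 on the log2 scale with the combination (adjusted p = 7.67e-04), a 2.48-fold lower level than with vehicle, and by 2.51 ± 0.27 with H3B-6527 alone (adjusted p = 1.33e-05), 5.68-fold lower. The combination was also lower than lenvatinib, by a log2 difference of -1.08 ± 0.25 (adjusted p = 0.00445). Lenvatinib alone gave -0.23 ± 0.23 against vehicle (adjusted p = 0.789, interval -0.73 to 0.27), and these groups overlapped.

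Each combination tumor held more EREG than every H3B-6527 tumor, a log2 difference of 1.20 ± 0.29 with a 95% interval of 0.58 to 1.82. It rested on 30, 38 and 66 counts in the combination tumors and 20, 17 and 19 in the H3B-6527 tumors. Only 2 of the 15836 genes, or 0.0126%, passed the test in this comparison, and EREG was not among them (edgeR, adjusted p = 0.289). DESeq2, which called 93 genes, called EREG too (adjusted p = 0.0359, range of all alternatives 0.0359 to 0.859). Among all genes, 5.95% had every combination tumor above every H3B-6527 tumor and 7.15% had every one below, and 99.2% had a lower log2 difference than EREG. Adding up the effects of the single agents gives -2.74 for EREG, whereas the combination gave -1.31. The test of that gap, combination minus H3B-6527 minus lenvatinib plus vehicle, gave 1.43 ± 0.37 (interval 0.63 to 2.23), which did not pass after adjustment over all genes (adjusted p = 0.757). No gene passed this test with edgeR, where 854 had an unadjusted p under 0.05. DESeq2 called 18 genes and voom 0. For AREG the same sum was -4.50 against -4.02 measured, a gap of 0.47 ± 0.61 with an interval of -0.87 to 1.81.

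HBEGF, which binds heparan sulfate at the cell surface and supports hepatocyte growth, was measured at 0.601, 1.45 and 0.787 CPM in combination tumors, at 0.952, 0.813 and 0.503 CPM with H3B-6527, at 0.767, 0.962 and 0.923 CPM with lenvatinib and at 1.03, 1.32 and 0.998 CPM with vehicle. Combination tumors spread from below the lowest to above the highest vehicle tumor. The log2 fold changes against vehicle were -0.26 ± 0.32 with the combination (adjusted p = 0.537, interval -0.95 to 0.44), -0.54 ± 0.33 with H3B-6527 (adjusted p = 0.194, interval -1.24 to 0.17) and -0.34 ± 0.32 with lenvatinib (adjusted p = 0.771, interval -1.04 to 0.35). H3B-6527 and lenvatinib tumors all lay below the lowest vehicle tumor, by 0.0465 CPM for H3B-6527 and 0.0359 CPM for lenvatinib at the nearest points. Among all genes, 27.9% showed this with H3B-6527 and 10.9% with lenvatinib. The lowest value, 12 counts in H3B-6527 replicate 3, came from the smallest library, and without it the H3B-6527 value was -0.34 (adjusted p = 0.424). Combination replicate 2 held the highest value, and without it the combination value was -0.68 (adjusted p = 0.101). The combination gave 0.085 against lenvatinib (edgeR, adjusted p = 0.862) and 0.28 against H3B-6527 (adjusted p = 0.832). The test of the gap from the added single-agent effects gave 0.62 (adjusted p = 0.932). HBEGF rested on 12 to 52 counts per tumor, which limits the precision of these values.

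BTC, which was first found in insulin-producing tumor cells and binds both EGFR and ERBB4, went the other way. It was measured at 0.664, 0.794 and 0.787 CPM in combination tumors, at 0.694, 0.732 and 1.13 CPM with H3B-6527, at 0.219, 0.385 and 0.359 CPM with lenvatinib and at 0.447, 0.280 and 0.341 CPM with vehicle. All 6 tumors that received H3B-6527 lay above all 6 that did not. Among all genes, every combination tumor lay above every vehicle tumor for 31.8%, and every H3B-6527 tumor did for 28.1%. Every combination tumor lay above every lenvatinib tumor for 27.2%. These shares set 3 tumors against 3, and the share for 6 against 6 was not computed. BTC rose by a log2 fold change of 1.07 ± 0.32 with the combination (adjusted p = 0.0146), 2.10-fold, and by 1.23 ± 0.32 with H3B-6527 alone (adjusted p = 0.00680), 2.35-fold. The combination exceeded lenvatinib by 1.22 ± 0.33 (adjusted p = 0.0111). Lenvatinib gave -0.15 ± 0.35 against vehicle (adjusted p = 0.926), and added to H3B-6527 it gave -0.16 ± 0.30 (adjusted p = 0.909), in both cases with overlapping groups. For BTC the gap from the added single-agent effects was -0.012 (edgeR, adjusted p = 0.999). BTC rested on 8 to 31 counts per tumor. With vehicle replicate 2 left out, BTC no longer passed for the combination (adjusted p = 0.0591).

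**Figure D2:**
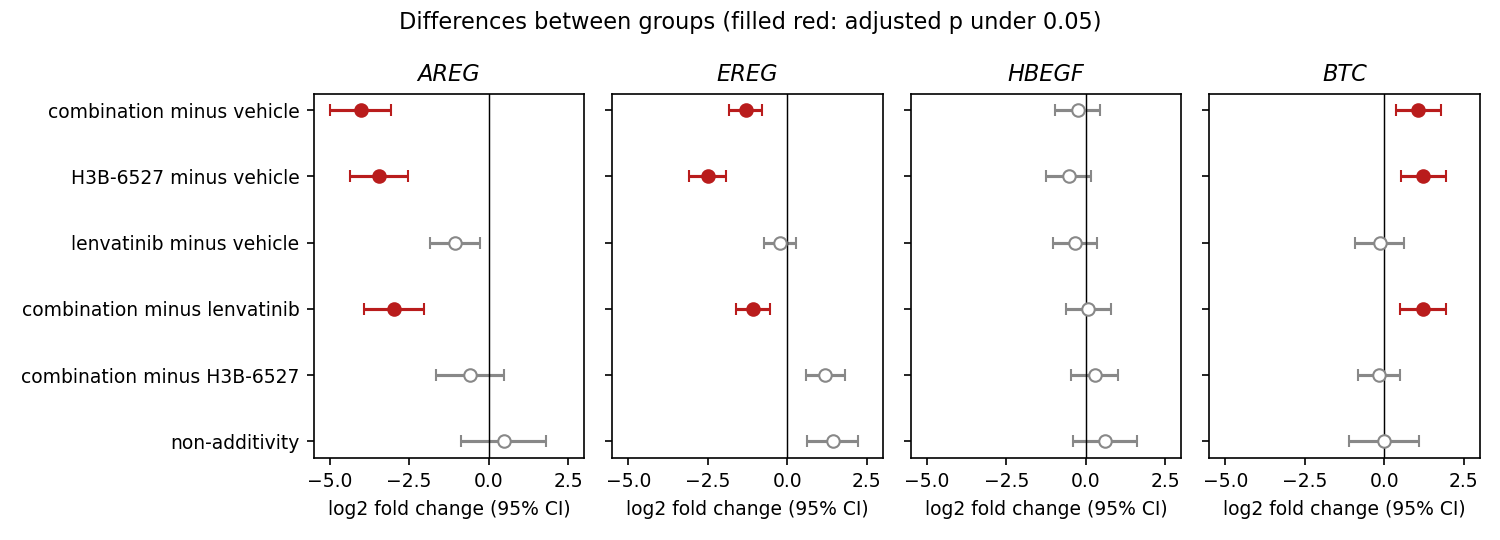
Log2 fold changes with 95% intervals for the 4 ligands with enough counts (columns) in 6 comparisons (rows), from 1 fit of 12 tumors. Filled red points have an adjusted p under 0.05. AREG and EREG lie left of 0 and BTC right of 0 in the 3 comparisons that set tumors with H3B-6527 against tumors without it, and the interval of EREG lies right of 0 for combination minus H3B-6527 (0.58 to 1.82).

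EGF, the ligand for which the receptor is named, had 0 counts in each of the 3 combination and the 3 H3B-6527 tumors, against 3, 2 and 1 counts in the lenvatinib tumors and 3, 3 and 4 in the vehicle tumors. It fell short of the count filter and has no test in the 12-tumor fit. Pooled over 3 tumors, with a floor of 3 counts over the group in place of 0, EGF was 2.94-fold lower than vehicle with the combination. The same floor gave 2.94-fold with H3B-6527. Neither value is a lower bound on the fall. The exact 95% counting intervals of the ratios to vehicle, with 0 counts kept as 0, reached up to 0.505 for the combination and 0.506 for H3B-6527. Falls as small as 1.98-fold and 1.97-fold thus lay within them. The 6 counts of lenvatinib tumors against 10 of vehicle tumors gave a ratio of 0.636 with an exact counting interval of 0.190 to 1.93, which leaves out differences between tumors. TGFA, a ligand best known from carcinomas, had 0 counts in all 12 tumors, where 3 counts would correspond to 0.0762 to 0.126 CPM. In the table, 9157 symbols had no counts in any library, and whether TGFA transcripts were among the sequences the authors quantified is not given in the sources used here, so its 0 cannot be read as a level.

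EPGN, epigen, is the remaining EGFR ligand gene, and NRG1 to NRG4 encode the neuregulins, which bind ERBB3 and ERBB4. EPGN was too sparse to test, with 13 counts over the combination tumors, 5 with H3B-6527, 25 with lenvatinib and 22 with vehicle. Its ratio of H3B-6527 to vehicle was 0.258 (counting interval 0.0763 to 0.698). NRG1 fell by 2.93 ± 0.49 with the combination (adjusted p = 3.35e-04), on 6 counts against 54 with vehicle, and by 1.83 ± 0.43 with H3B-6527 (adjusted p = 0.00339), on 13 counts. Tumors given H3B-6527 held 1 to 6 NRG1 counts each, so NRG1 passed the count filter through the lenvatinib and vehicle tumors. A gene this low with H3B-6527 could be tested here only as a fall. NRG3 rose by 1.45 ± 0.14 with the combination (adjusted p = 7.02e-06), to 13.8 CPM against 5.03 CPM with vehicle, and by 1.40 ± 0.14 with H3B-6527 (adjusted p = 8.31e-06). NRG2 had 1, 0, 1 and 3 counts over the combination, H3B-6527, lenvatinib and vehicle tumors, and NRG4 had 21, 23, 10 and 18.

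Among the receptors, 2 of 4 rose and 1 fell against vehicle, with the combination and with H3B-6527, where 50.1% and 49.4% of all genes were called. EGFR, the receptor of all 6 ligands, rose by 0.67 ± 0.11 with the combination (adjusted p = 2.18e-04), at 482 ± 18.0 CPM against 303 ± 7.44 CPM with vehicle (SD, n = 3). With H3B-6527 it rose by 0.67 ± 0.11 (adjusted p = 2.12e-04), at 483 ± 82.5 CPM. ERBB2, the partner receptor with no ligand of its own, rose by 0.72 ± 0.23 with the combination (adjusted p = 0.0212) and by 0.79 ± 0.23 with H3B-6527 (adjusted p = 0.0141), and without H3B-6527 replicate 1 the H3B-6527 value was 0.41. For the combination, ERBB2 no longer passed when combination replicate 1 (adjusted p = 0.0732), vehicle replicate 1 (0.0653) or vehicle replicate 3 (0.0571) was left out. ERBB4, the second receptor of EREG, HBEGF and BTC, fell by 1.24 ± 0.31 with the combination (adjusted p = 0.00586) and by 1.19 ± 0.31 with H3B-6527 (adjusted p = 0.00783). ERBB3 had log2 fold changes of 0.27 ± 0.15 (adjusted p = 0.152) and 0.10 ± 0.15 (adjusted p = 0.593) in the same order.

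Of 8 listed genes for ligand shedding and membrane partners, 6 were tested, of which 5 fell with the combination and 4 with H3B-6527, and none rose, where 25.3% and 24.3% of all genes fell. ADAM19, a membrane protease able to cut neuregulins, fell by 1.68 ± 0.22 with the combination (adjusted p = 6.53e-05) and by 2.52 ± 0.23 with H3B-6527 (adjusted p = 5.85e-06), at 6.90 ± 1.62 CPM and 3.99 ± 1.70 CPM against 22.3 ± 0.21 CPM with vehicle. RHBDF2, which carries the main sheddase ADAM17 to the cell surface, fell by 1.29 ± 0.23 (adjusted p = 5.54e-04) and 1.50 ± 0.23 (adjusted p = 2.04e-04), and ADAM9, another membrane protease, by 0.88 ± 0.15 (adjusted p = 4.57e-04) and 0.94 ± 0.15 (adjusted p = 2.83e-04), in the same order. CD9, a membrane partner of the HBEGF precursor, had 5, 11, 1 and 2 counts over the combination, H3B-6527, lenvatinib and vehicle tumors.

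Behind the receptor, 5 adaptor genes gave 2 rises and 1 fall with the combination and 3 rises and 1 fall with H3B-6527, beside 50.1% and 49.4% of all genes called. GAB1, a docking protein, rose by 0.79 ± 0.12 (adjusted p = 1.32e-04) with the combination and 0.98 ± 0.12 (adjusted p = 2.47e-05) with H3B-6527. SOS1, the RAS exchange factor, rose by 0.58 ± 0.10 (adjusted p = 5.36e-04) and 0.67 ± 0.10 (adjusted p = 1.91e-04), and the adaptor SHC1 fell by 0.70 ± 0.15 (adjusted p = 0.00227) and 0.75 ± 0.15 (adjusted p = 0.00156). Of 8 genes that dampen the receptors, 1 rose and 4 fell with the combination, and 2 rose and 3 fell with H3B-6527, 5 of 8 called in each and again beside 50.1% and 49.4% of all genes. The ubiquitin ligase genes CBL and CBLB fell by 1.07 ± 0.15 (adjusted p = 9.65e-05) and 0.56 ± 0.09 (adjusted p = 2.13e-04) with the combination, and by 0.87 ± 0.15 (adjusted p = 4.18e-04) and 0.48 ± 0.09 (adjusted p = 6.81e-04) with H3B-6527. SOCS4, a cytokine signalling suppressor that acts on EGFR, fell by 0.69 ± 0.12 with the combination (adjusted p = 5.43e-04) and had a value of -0.30 ± 0.12 with H3B-6527 (adjusted p = 0.0567).

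Over the whole list of 30 other pathway genes, 25 were tested. With the combination 6 rose and 12 fell, and with H3B-6527 8 rose and 10 fell, 18 calls each, where 50.1% and 49.4% of all genes were called. The medians of the 25 log2 fold changes were -0.0093 and -0.091, beside 0.0077 and 0.0066 for all genes. Lenvatinib against vehicle called 0 of the 25, 0 of the 4 ligands and 0 of all genes with edgeR, where 1698 genes had an unadjusted p under 0.05, DESeq2 called 243 and voom 8.

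**Figure D3:**
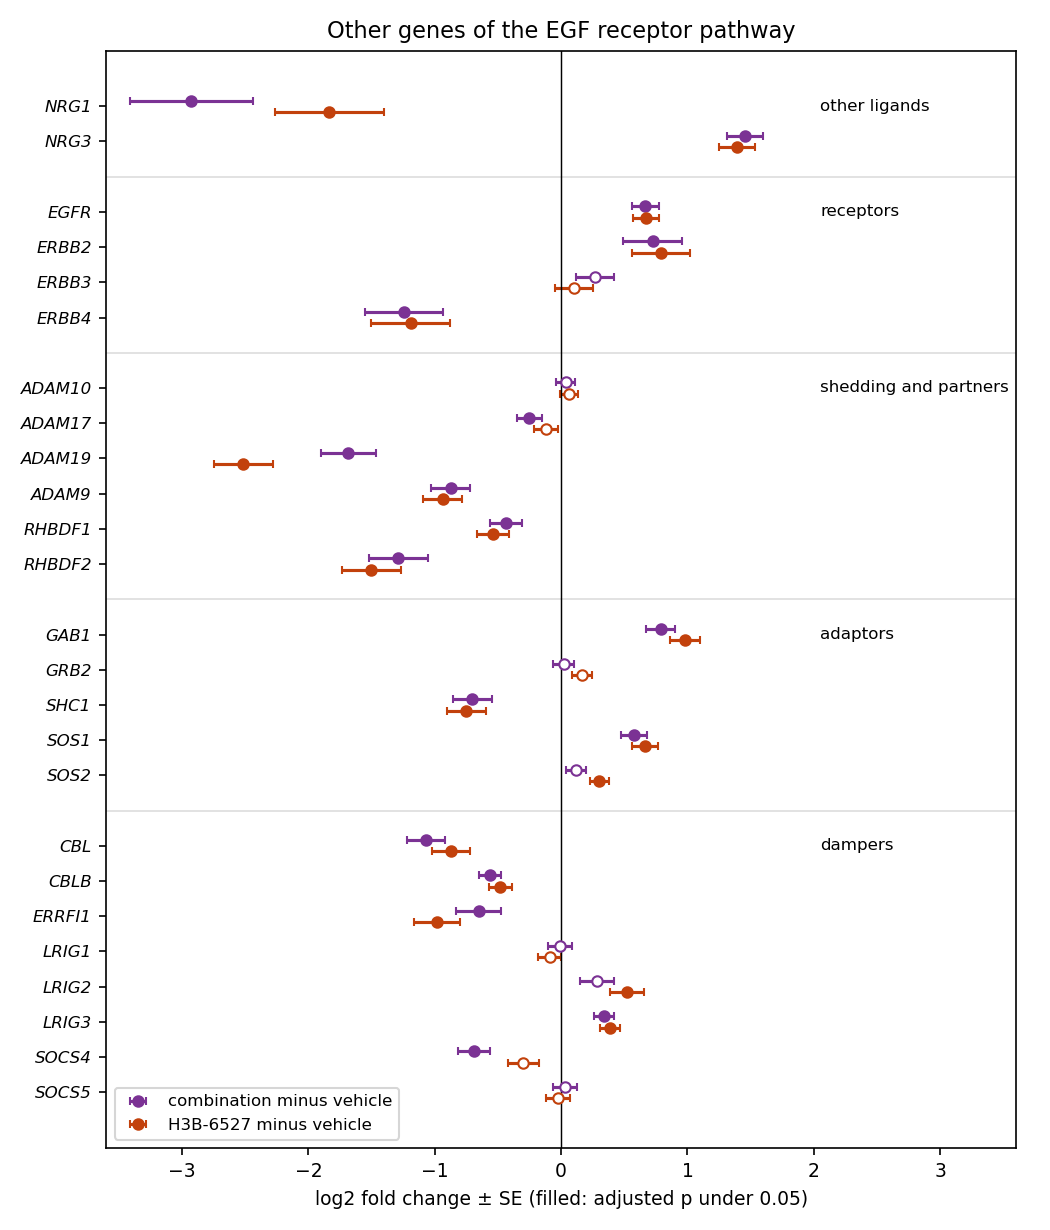
Log2 fold changes ± SE against vehicle for the 25 tested genes of the EGF receptor pathway other than the 6 ligands, grouped by role, for the combination (purple) and H3B-6527 (orange). Filled points have an adjusted p under 0.05. EGFR and ERBB2 lie right of 0, ERBB4 left of it, and among shedding genes ADAM19 lies farthest left (-1.68 and -2.52).

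In the mouse genome (RefSeq, GRCm38.p6), Epgn, Ereg, Areg and Btc stand next to each other with no other protein-coding gene between them, flanked by Mthfd2l and Parm1. Human coordinates were not used here. The human genes of these names moved in different directions. Against vehicle, AREG and EREG fell and BTC rose with both treatments that held H3B-6527. MTHFD2L, a mitochondrial folate enzyme, fell by 0.46 ± 0.15 with the combination (adjusted p = 0.0245) and by 0.49 ± 0.16 with H3B-6527 (adjusted p = 0.0184). PARM1 had log2 fold changes of 0.53 ± 0.24 (adjusted p = 0.0841) and 0.37 ± 0.24 (adjusted p = 0.224), and RCHY1, a ubiquitin ligase gene, had -0.061 and 0.080 (adjusted p = 0.720 and 0.629).

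The genes most like each changed ligand were found by the root mean square difference over the 12 tumors between log2 CPM values centred on each gene's own mean, so that 0 is an identical course. AREG and EREG differed by 0.99 on this log2 scale, and 2.27% of all tested genes were nearer to AREG than EREG was. Nearest to AREG were SLC6A14 and SLC6A15, both amino acid transporters, at 0.38 and 0.41, and the FGF receptor gene FGFR1 at 0.41. Mean SLC6A14 was 1.95 CPM with the combination, 1.77 with H3B-6527, 11.1 with lenvatinib and 32.4 with vehicle, and mean FGFR1 was 4.34, 5.77, 35.5 and 68.7 CPM in the same order. SLC6A15 averaged 0.0200, 0.0140, 0.444 and 0.739 CPM, so near 0 in the 6 tumors given H3B-6527 that its distance from AREG depends on the prior count of 2. Like AREG, SLC6A14 and FGFR1 had intermediate means with lenvatinib alone.

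Nearest to EREG were EVA1A at 0.15, SPRY2 at 0.16 and SPRED2 at 0.17. SPRY2, a feedback inhibitor of receptor tyrosine kinase signalling, averaged 17.9 CPM with the combination, 11.2 with H3B-6527, 44.1 with lenvatinib and 54.0 with vehicle. SPRED2, a RAS pathway inhibitor, averaged 15.9, 9.13, 38.6 and 41.2 CPM. As with EREG, the combination mean lay above the H3B-6527 mean for both. Nearest to BTC were RNF152 at 0.20, VEGFD at 0.23 and PKIA at 0.26. VEGFD, a growth factor of lymphatic vessels, averaged 1.52 CPM with the combination, 1.62 with H3B-6527, 0.778 with lenvatinib and 0.767 with vehicle. These genes were picked for their likeness, which is therefore a description.

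**Figure D4:**
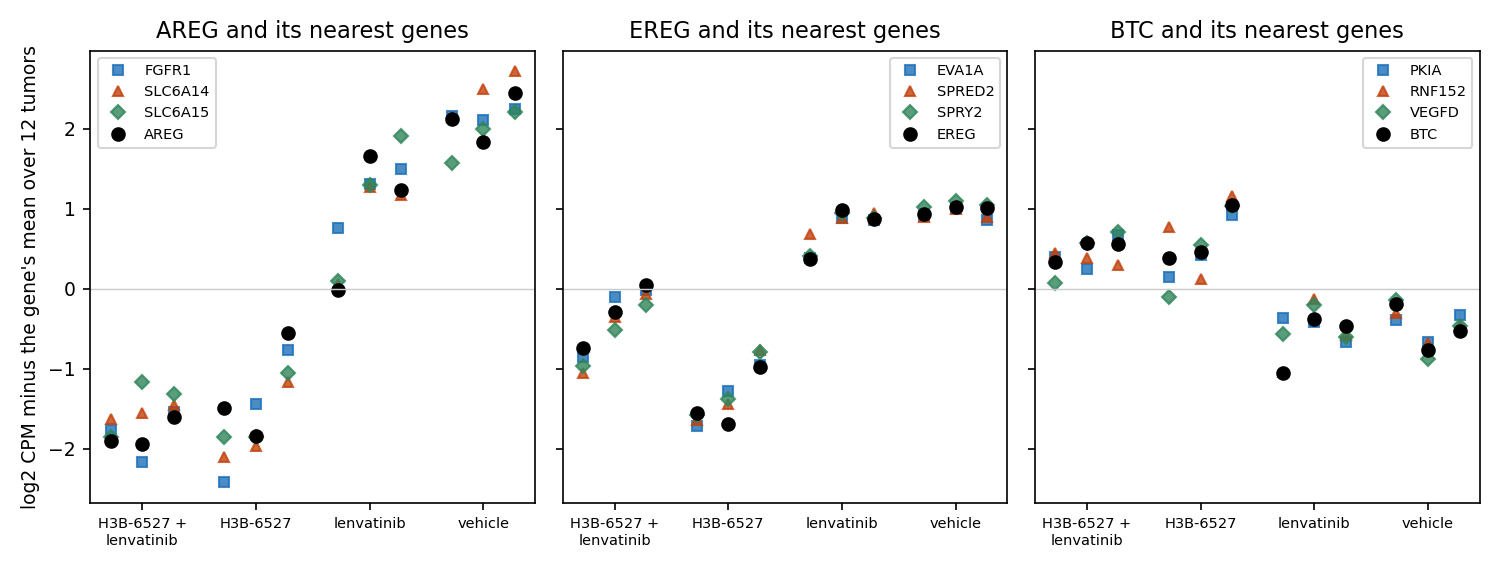
Log2 CPM minus each gene's mean over the 12 tumors, for AREG, EREG and BTC (black circles) and the 3 genes nearest to each (coloured), with 3 tumors per group side by side. Lenvatinib replicate 1 is the lowest of its group for AREG (first point), and for EREG the 3 combination tumors lie above the 3 H3B-6527 tumors.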

How the data were processed

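Gene expression was measured by RNA sequencing in 12 tumors, each library run on 4 lanes. The authors deposited expected counts per human gene symbol, unscaled, and 40.3% of the values are not whole. Per the submitters' processing notes, STAR and kallisto were used with the builds GRCh37 and GRCm38; versions, annotation and whether reads of the mouse host were removed are not given in the sources used here. Counts were rounded. Genes passing filterByExpr on the 4 groups (15836) were fitted together in edgeR 4.0.16 under R 4.3.3 (TMM, robust quasi-likelihood F-test, 2-sided), adjusted by Benjamini-Hochberg over all genes, with a threshold of 0.05. SE is the log2 fold change divided by the root of F, and 95% intervals use the fit's degrees of freedom. Depths were 23819300 to 40944973 counts. Pooled-count ratios have exact binomial intervals, which, like the floor of 3 counts, cover counting error only. The labels name separate mice but no batch or pairing, and replicate numbers only name tumors. Alternatives used DESeq2 1.42.0, voom in limma 3.58.1, other scaling and filters, and left out single tumors. The code was tested on simulated data.

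The ligands, pathway list, markers and the naming rule were chosen with earlier results of these data known. The rule names all 6 ligands, up to 3 genes per role with the smallest adjusted p against vehicle, the 4 receptors, and the 3 genes nearest to each called ligand (prior count 2). CD9, PARM1, MTHFD2L, RCHY1, EPGN, NRG2 and NRG4 are given for completeness of their lists. A planned count of promoter motifs, and sequences of the human genes, are not reported here.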

Additional observations from a re-analysis of the deposited data

How the results depend on the processing

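Of 330 results for the 4 tested ligands under the alternatives, 312 kept direction and side of the threshold. Every call for AREG and EREG held under each alternative run, with AREG from -3.87 to -3.19 for H3B-6527 and from -4.17 to -3.85 for the combination against vehicle, AREG and AREGB summed included. BTC lost its call for the combination against vehicle without vehicle replicate 2 (range 0.92 to 1.26 over left-out tumors), and EREG gained one for combination minus H3B-6527 with DESeq2 (1.21). The 16 reversals were all of values that did not pass: HBEGF in combination minus lenvatinib (-0.021 with library totals, -0.014 with voom, -0.34 to 0.32 over left-out tumors) and in combination minus H3B-6527 (-0.14 to 0.52), and BTC in lenvatinib minus vehicle (-0.30 to 0.063), in combination minus H3B-6527 (-0.29 to 0.077) and in the non-additivity test (0.0015 with library totals, 0.051 with voom, -0.23 to 0.23). ERBB3 reversed with H3B-6527 (-0.020 with library totals, -0.11 to 0.22 over left-out tumors). ERBB2 lost its calls with no low-count filter (adjusted p = 0.0610 with H3B-6527 and 0.0833 with the combination) and with library totals for the combination (0.0552). SOCS4 with H3B-6527 passed with library totals and voom (0.00994 and 0.0474), and ERBB3 with the combination passed in the 2-group fit (0.0265).

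The number of genes called by lenvatinib minus vehicle, 0, became 243 with DESeq2, 41 without a filter, 189 in the 2-group fit, 8 with voom and 0 to 13 over left-out tumors. For combination minus H3B-6527 the 2 calls became 93, 13 and 1 in the first 3 settings and 0 to 16 over left-out tumors, and for non-additivity the 0 became 18 with DESeq2. The cause was not tested. Without a filter EGF passed against vehicle (adjusted p = 0.0282 with the combination, 0.0292 with H3B-6527), on 0 counts against 10 with vehicle. The filter of 1 CPM removed BTC and NRG1, and DESeq2 gave no adjusted p for HBEGF and BTC in the non-additivity test. No paired analysis was possible because the labels number no tumors, and the numbers used here, given in listing order, only name them. Low counts limit HBEGF, BTC and EGF. They also limit AREG and EREG in tumors given H3B-6527, which held 24 to 54 and 17 to 66 counts each.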
